A study of Mus musculus with 18 samples.

Results

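The genes of mitochondrial fatty acid oxidation were followed in the small intestine of irradiated mice as a set of 32. They were chosen by symbol for their place in the pathway, but with earlier results of these data known. All 32 had transcripts in the table and all 32 passed the filter for testing, among 11767 genes tested of 21928 symbols. Acot1 passed it only through the HFD mice. The tissue came from 18 wild type C57BL/6 mice in 6 groups of 3. Of the males, 3 were unirradiated controls, 3 had total abdominal irradiation (TAI) at 12 Gy, and 3 had simvastatin, an inhibitor of cholesterol synthesis, after 12 Gy TAI. Of the females, 3 were unirradiated controls, 3 had 12 Gy TAI, and 3 were put on a high-fat diet (HFD) after 12 Gy TAI. All tissue was taken at day 21. Simvastatin was given to males alone and HFD to females alone, and both were given only after TAI, so that sex and treatment cannot be told apart between these arms and neither treatment can be told apart from its combination with TAI.

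Mitochondria oxidize fatty acids in a spiral that takes acetyl-CoA off the chain at each turn. A fatty acid is first joined to coenzyme A, crosses the inner membrane as a carnitine ester, and then passes through dehydrogenation, hydration, a second oxidation and thiolysis. Electrons from the dehydrogenases reach the respiratory chain through the electron transfer flavoprotein. In the small intestine, enterocytes take up dietary fat, send most of it on as lipoproteins and burn or store the rest, and nuclear receptors of the PPAR family, which bind fatty acids, are known to control many of these genes.

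The level of each transcript was deposited as FPKM, a count of fragments scaled to transcript length and to the size of the library, and the transcripts of a gene were summed. The libraries held 390703 to 417937 FPKM in all, 10540 to 11752 genes reached 1 FPKM, and depth, estimated from the steps between low values, lay between 0.785 and 1.18 times that of female control replicate 1. In males, enterocyte markers summed to 23755 to 25708 FPKM in controls, 23407 to 26695 FPKM with TAI and 27440 to 28730 FPKM with simvastatin. In females they summed to 31339 to 33365 FPKM in controls, 23307 to 27779 FPKM with TAI and 33472 to 35910.0 FPKM with HFD. Fabp6, which marks the ileum, was at no more than 1.39 FPKM in 17 of the libraries. Female TAI replicate 3 stood apart, with Fabp6 at 15.6 FPKM, and its 8 Paneth cell genes summed to 4943 FPKM against 220.2 and 512 FPKM in the other female TAI mice. The median SD of a gene on the log2 scale was 0.214 in female TAI mice and between 0.0994 and 0.143 in the other groups. Genes of the Y chromosome, Uty among them, separated the libraries labelled male from those labelled female. The median log2 fold change of all genes lay between −0.10 and 0.12 over the comparisons, with 0.12 for TAI in females, and between −0.02 and 0.01 after quantile or median ratio scaling. In bulk tissue, fewer cells of a type and less RNA per cell cannot be told apart. The labels do not say more of the replicates than their number, so that p values measure the spread between these samples.

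The 32 genes lie on 14 chromosomes. Hadha and Hadhb, which encode the alpha and beta subunits of the mitochondrial trifunctional protein, are neighbours in opposite directions on chromosome 5, and their RefSeq start sites at 30154980 and 30155253 lie 273 bases apart. The promoter windows of 28 of the genes, 250 bases before to 50 after the start site, were matched in RefSeq (GRCm38.p6). These 29 windows, with 2 for Acsl1, had a median GC content of 61.3%, against 52.7% over 32851 windows. They were searched on both strands for 2 AGGTCA half-sites that are 1 base apart, the repeat named DR1 that PPAR and its partner RXR are known to bind. At most 2 mismatches to this repeat were found in 3 of the windows (10.3%), against 3.86% of all windows, and at most 1 mismatch in none, against 0.554% of all windows. The 3 windows were those of Etfa, of Echs1, and of Slc25a20, in which the match starts 6 bases after the start site. A match is a description of the letters, and no match says only that these letters are not in the window.

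Of the 273 bases between the start sites of Hadha and Hadhb, a part of 85 bases next to Hadhb is shown, because it lies between the starts of both genes. The stretches before Etfa and Echs1 are shown because they hold the match, in capitals. Acadl is shown for comparison, since its level changed most among the genes above 10 FPKM and no match was found there. Each runs 5′ to 3′ on the strand of the named gene and holds no annotated exon. The Hadhb stretch is chr5:30155163-30155247, the Etfa stretch chr9:55512244-55512493, the Echs1 stretch chr7:140116477-140116671 and the Acadl stretch chr1:66863310-66863559.
Hadha to Hadhb: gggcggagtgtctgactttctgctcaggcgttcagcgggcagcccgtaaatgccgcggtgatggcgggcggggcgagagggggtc
Etfa: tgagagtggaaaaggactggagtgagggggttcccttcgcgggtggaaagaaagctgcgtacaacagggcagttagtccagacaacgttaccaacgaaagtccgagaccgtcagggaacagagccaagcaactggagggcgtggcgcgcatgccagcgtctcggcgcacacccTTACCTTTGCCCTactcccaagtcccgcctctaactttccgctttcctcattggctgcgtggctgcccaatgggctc
Echs1: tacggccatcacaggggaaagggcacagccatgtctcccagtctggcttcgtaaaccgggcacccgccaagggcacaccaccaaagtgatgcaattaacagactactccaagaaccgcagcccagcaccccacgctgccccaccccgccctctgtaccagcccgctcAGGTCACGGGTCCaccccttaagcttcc
Acadl: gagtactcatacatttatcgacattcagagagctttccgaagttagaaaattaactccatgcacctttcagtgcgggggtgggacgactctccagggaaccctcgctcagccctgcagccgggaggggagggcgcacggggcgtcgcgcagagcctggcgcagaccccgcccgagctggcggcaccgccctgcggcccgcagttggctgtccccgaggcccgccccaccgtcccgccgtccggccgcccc

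Compared with female mice exposed to TAI alone, 16 of the 32 genes were higher in the HFD mice and 0 were lower, where 1.74% of all genes tested were higher (205) and 1.42% lower (167). Of the 16, Acot1 was tested only because of its level in the HFD mice, and 15 remain without it. The median log2 fold change of the 32 genes was 0.39, against −0.01 over all genes, and 29 of the 32 had a positive value. In 26 of them every HFD mouse lay above every female TAI mouse, which held for 7.56% of all genes, and in 19 every HFD mouse lay above all 15 other mice of the series, which held for 2.41% of all genes. A gene was called where limma gave an adjusted p (Benjamini-Hochberg, all genes tested) under 0.05 in 1 fit of the 18 libraries on log2(FPKM + 1), a scale that makes the change of genes of few FPKM smaller than their ratio. The count of 16 was 8 without HFD replicate 1 and 9 without HFD replicate 2, where Acot1 no longer passed the filter, and 14 without female TAI replicate 3. It was 11 with median ratio scaling, without Acads, Slc25a20, Etfdh, Decr1 and Acsl5, and 3 when only these 6 libraries were fitted, which are Acadl and Acadvl beside Acot1. It was 10 with a weight for each group, an alternative added once results were known.

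**Figure D1:**
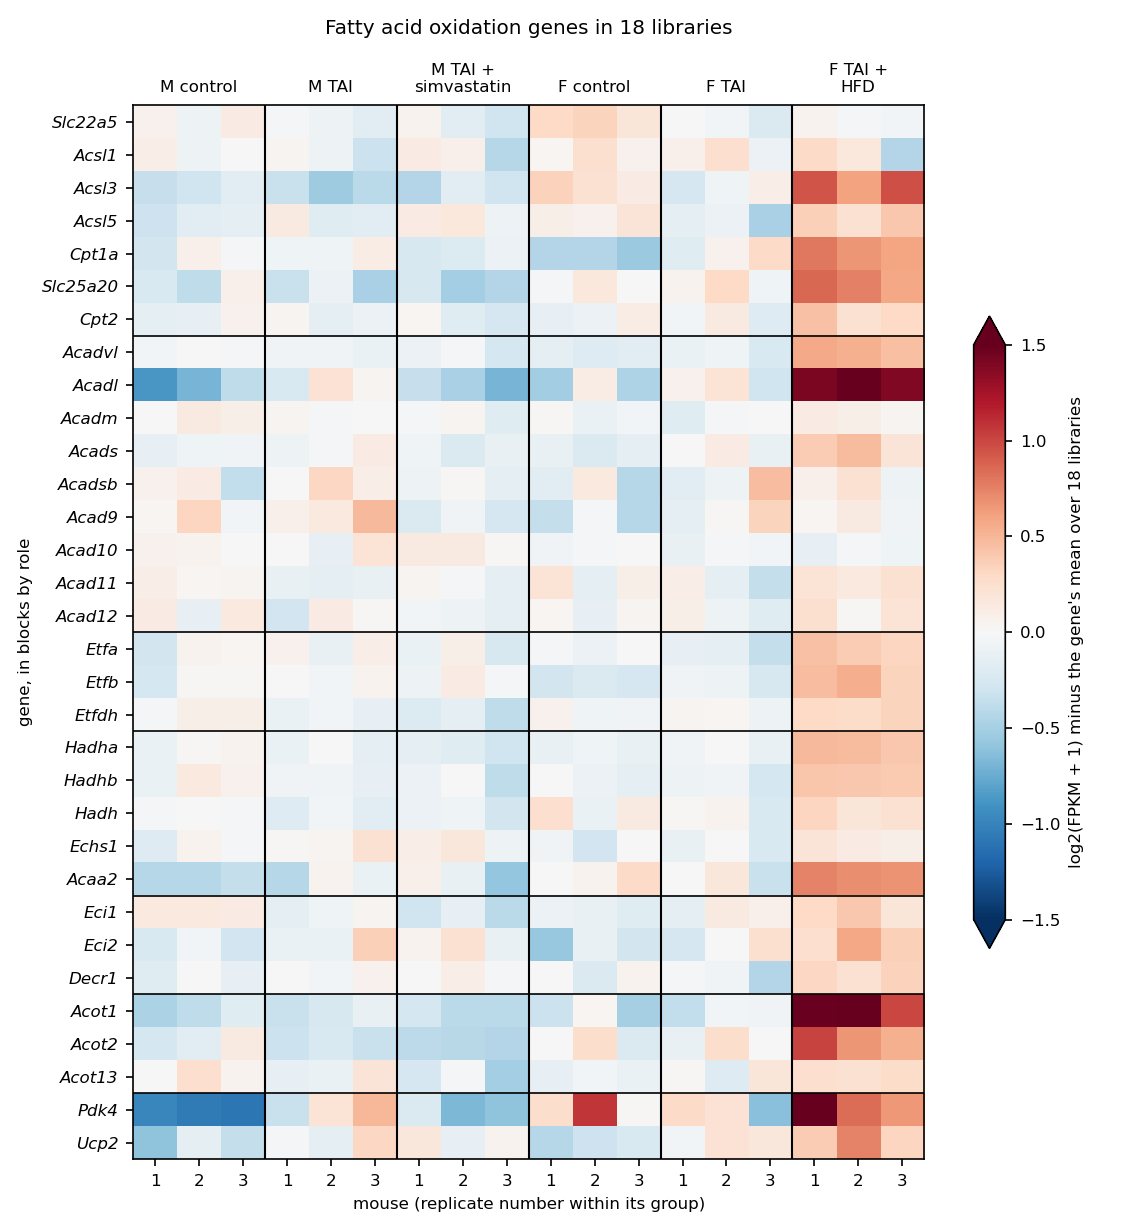
Level of the 32 genes (rows, in blocks by role) in each of the 18 libraries (columns), as log2(FPKM + 1) minus the gene's mean over all libraries, with red above and blue below that mean. The 3 columns of HFD mice are red in most rows, and the darkest cells belong to Acadl, Acot1 and Pdk4.

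Entry of fatty acids was the first step examined, and 4 of its 7 genes were higher with HFD than with TAI alone. Acsl5, an acyl-CoA synthetase and the most abundant of the 32 genes, was at 713, 739.8 and 559.7 FPKM in female TAI mice and at 1007, 921 and 1039 FPKM in HFD mice. The 2 groups did not overlap, and the HFD mice also lay above the female controls, at 833, 819 and 899.7 FPKM (log2 fold change 0.57, SE 0.12, adjusted p = 0.0136 against TAI). This call was lost without HFD replicate 1 (adjusted p = 0.0631) or 3 (adjusted p = 0.058). Against the controls the change of Acsl5 was not past the threshold (log2 fold change 0.22, adjusted p = 0.244). Acsl3, a synthetase found on the endoplasmic reticulum and lipid droplets, was at 9.70, 11.2 and 12.6 FPKM with TAI and at 23.6, 18.4 and 23.8 FPKM with HFD. Its levels in HFD mice exceeded those in every other mouse, and the mean rose 1.96-fold (log2 fold change 0.91, SE 0.12, adjusted p = 0.000481). Acsl3 was not called when its transcript of highest mean was taken in place of the sum (adjusted p = 0.132). Acsl1, another synthetase, was at 12.9 to 22.1 FPKM in these 6 mice, and its difference had an interval of −0.46 to 0.29 on the log2 scale.

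Cpt1a, the rate-limiting carnitine palmitoyltransferase of the outer membrane, was at 18.1, 18.2 and 16.7 FPKM in female controls, at 21.9, 26.1 and 30.7 FPKM with TAI and at 43.8, 40.2 and 38.3 FPKM with HFD. The 3 groups formed 3 steps with no overlap. The step from TAI to HFD was 1.56-fold (log2 fold change 0.63, SE 0.11, adjusted p = 0.00528), and HFD mice exceeded controls 2.31-fold (log2 fold change 1.16, SE 0.11, adjusted p = 3.83e-05). Slc25a20, the carnitine-acylcarnitine translocase of the inner membrane, was at 27.04, 32.1 and 24.8 FPKM with TAI and at 47.9, 44.4 and 39.5 FPKM with HFD (log2 fold change 0.64, SE 0.13, adjusted p = 0.0144). The HFD mice were above all other mice, and the call was lost without HFD replicate 1 (adjusted p = 0.0838) or 2 (adjusted p = 0.0616). Cpt2, which returns the acyl group to coenzyme A inside, was also highest in the 3 HFD mice but did not pass the test (log2 fold change 0.35, SE 0.10, adjusted p = 0.0818). Slc22a5, the plasma membrane carnitine transporter, averaged 23.3 ± 1.99 FPKM with TAI and 24.8 ± 0.893 FPKM with HFD (n = 3 mice per group), a difference of 0.09 on the log2 scale with an interval of −0.11 to 0.28. Of the 50-base stretches of its transcripts, 26.3% also occur in those of the neighbours Slc22a4 and Slc22a21 and other genes, so that reads may be split among them.

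Of the 9 acyl-CoA dehydrogenases, 3 were higher with HFD than with TAI alone, and they were those for very long, long and short chains. Acadl, for long chains, was at 47.98, 52.8 and 37.03 FPKM in the female TAI mice and at 123, 136 and 121 FPKM in the HFD mice. No other mouse of the series reached 54 FPKM, and the mean rose 2.76-fold over TAI (log2 fold change 1.46, SE 0.18, adjusted p = 0.000357) and 3.35-fold over female controls (log2 fold change 1.74, SE 0.18, adjusted p = 5.12e-05). Acadvl, for very long chains, was at 58.3, 59.4 and 53.2 FPKM with TAI and at 92.7, 90.6 and 85.8 FPKM with HFD. Its other 15 values lay between 51.8 and 62.3 FPKM, so that the rise of 1.57-fold is to be read beside a narrow spread (log2 fold change 0.65, SE 0.07, adjusted p = 6.54e-05). Of the exonic bases of Acadvl, 42.9% are shared with Dvl2 on the opposite strand, and the library kit does not mark strand. Dvl2 itself was at 1.34, 1.38 and 1.70 FPKM with TAI and at 1.08, 2.21 and 1.22 FPKM with HFD. Acads, for short chains, was at 15.6, 14.4 and 15.4 FPKM in controls, 16.8, 18.5 and 15.5 FPKM with TAI and 22.4, 23.9 and 19.5 FPKM with HFD. The HFD mice lay above all others, with a smaller rise than that of Acadl (log2 fold change 0.35, SE 0.09, adjusted p = 0.0345). The call of Acads against TAI was lost without female TAI replicate 1 or 3 or HFD replicate 1 or 2 (adjusted p between 0.0687 and 0.18).

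The medium-chain enzyme Acadm was at 56.3 ± 3.94 FPKM with TAI and 62.6 ± 1.85 FPKM with HFD (n = 3 mice per group). Its groups did not overlap, but its difference of 0.15 had an interval of 0.00 to 0.31 and did not pass the test (adjusted p = 0.329). Whether its change differs from those of the other chain lengths was not tested. Acad11, the most abundant dehydrogenase in control mice, gave 0.33 (adjusted p = 0.103, and 0.017 without female TAI replicate 1). Acadsb, which acts on branched short chains, Acad9, which also serves in complex I assembly, Acad10 and Acad12 were each below 8 FPKM in every library, and their log2 fold changes lay between −0.03 and 0.21 with none called. Acad10 and Acad12 share about 17% of their 50-base stretches with other genes, each other included, so their split is uncertain. The 3 dehydrogenases of amino acid breakdown that were listed beside them, Acad8, Ivd and Gcdh, gave values between 0.03 and 0.06 and were not called.

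**Figure D2:**
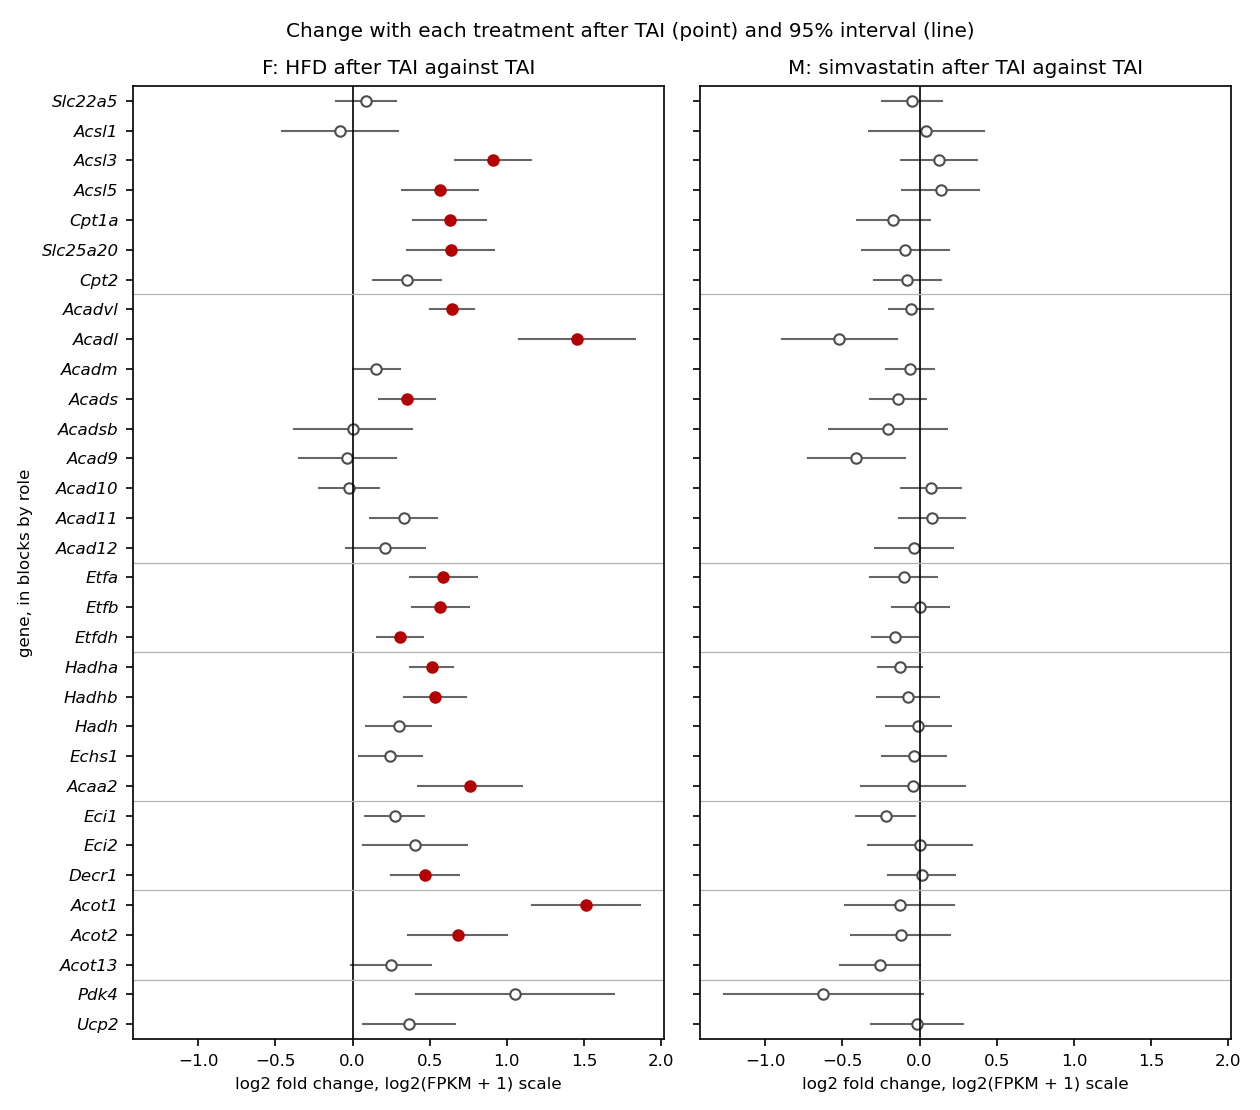
Log2 fold change (horizontal axis, on the log2(FPKM + 1) scale) of each gene (rows, in blocks by role), with the 95% interval as a line, for HFD after TAI against TAI in females (left) and simvastatin after TAI against TAI in males (right). Filled points are past an adjusted p of 0.05, and there are 16 at the left and 0 at the right.

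All 3 genes that carry electrons from the dehydrogenases to the respiratory chain were higher with HFD. Etfa, the alpha subunit of the electron transfer flavoprotein, was at 75.5, 74.04 and 63.8 FPKM with TAI and at 112, 107 and 103 FPKM with HFD (log2 fold change 0.59, SE 0.10, adjusted p = 0.00444). Etfb, the beta subunit, was at 76.9, 75.6 and 67.4 FPKM with TAI and at 110.1, 117 and 101 FPKM with HFD (log2 fold change 0.57, SE 0.09, adjusted p = 0.0017). Both subunits thus moved by about the same factor, 1.51-fold and 1.49-fold, and in both the HFD mice lay above all others. Of the exonic bases of Etfb, 58.3% are shared with Gm45233 and a microRNA gene within it on the same strand, so that part of its reads could belong there. Etfdh, the dehydrogenase that passes the electrons on to ubiquinone, was at 40.97, 40.4 and 37.6 FPKM with TAI and at 49.1, 48.3 and 50.4 FPKM with HFD. The 2 groups did not overlap, but the call (log2 fold change 0.31, SE 0.07, adjusted p = 0.0266) was lost without female TAI replicate 2 or 3 or any 1 of the HFD mice (adjusted p between 0.0561 and 0.0983).

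In the later steps of the spiral, 3 of 5 genes were higher with HFD. Hadha was at 70.7, 73.3 and 67.7 FPKM with TAI and at 104, 102 and 97.2 FPKM with HFD (log2 fold change 0.51, SE 0.07, adjusted p = 0.000552). Its partner Hadhb, on the other side of the stretch shown above, was at 53.3, 54.5 and 46.8 FPKM with TAI and at 75.6, 75.3 and 74.2 FPKM with HFD (log2 fold change 0.54, SE 0.09, adjusted p = 0.00493). The subunits rose 1.43-fold and 1.46-fold, and neither had an overlap with any other group. With its transcript of highest mean in place of the sum, Hadhb had a log2 fold change of −0.25 (adjusted p = 0.971), and 19.7% of its 50-base stretches also occur in other genes. Acaa2, the thiolase that ends each turn, was at 60.6, 67.8 and 47.6 FPKM with TAI and at 102, 98.8 and 96.8 FPKM with HFD. The HFD mice lay close together and above all other mice (log2 fold change 0.76, SE 0.16, adjusted p = 0.0148), and the call was lost without HFD replicate 1 (adjusted p = 0.068) or 2 (adjusted p = 0.0581). Hadh, for medium and short chains and the most abundant gene of this step, was at 348, 356 and 293 FPKM with TAI and at 433, 389 and 402 FPKM with HFD. Its groups did not overlap, but neither it (log2 fold change 0.30, SE 0.10, adjusted p = 0.137) nor the hydratase Echs1 (adjusted p = 0.232) passed the test.

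Unsaturated chains need an isomerase and a reductase. Decr1, the 2,4-dienoyl-CoA reductase, was at 36.6, 35.8 and 27.1 FPKM with TAI and at 46.5, 43.9 and 47.6 FPKM with HFD. The low value of female TAI replicate 3 widened the gap, and the HFD mice were above all others (log2 fold change 0.47, SE 0.10, adjusted p = 0.0194). Without any 1 of the HFD mice the call was lost (adjusted p between 0.0515 and 0.0822). The isomerases Eci1 (log2 fold change 0.27, SE 0.09, adjusted p = 0.131) and Eci2 (log2 fold change 0.41, SE 0.16, adjusted p = 0.227) had positive values that did not pass the test against TAI. Both were past the threshold against female controls, where Eci1 averaged 24.3 ± 0.780 FPKM and 33.1 ± 2.59 FPKM with HFD (n = 3 mice per group, adjusted p = 0.0145) and Eci2 gave a log2 fold change of 0.72 (adjusted p = 0.0174). These calls were lost without female control replicate 3 or HFD replicate 1 or 2 for Eci1 and without female control replicate 1 or 3 or HFD replicate 2 for Eci2 (adjusted p between 0.0514 and 0.0987).

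Thioesterases release the acyl group from coenzyme A. Acot1, the cytosolic enzyme known as a PPAR alpha target, was at 0.249, 0.596 and 0.107 FPKM in female controls, at 0.211, 0.522 and 0.512 FPKM with TAI and at 3.39, 3.69 and 2.14 FPKM with HFD. It stayed below 1 FPKM in all 15 mice without HFD and so was tested because of the HFD mice, which makes its call (log2 fold change 1.51, SE 0.16, adjusted p = 0.000112) a description. Acot2, its mitochondrial paralogue next to it on chromosome 12, was at 1.995, 2.88 and 2.26 FPKM with TAI and at 5.52, 4.11 and 3.69 FPKM with HFD. The 3 HFD values were the highest of the 18 (log2 fold change 0.68, SE 0.15, adjusted p = 0.0205), and this call needed female TAI replicate 1 (adjusted p = 0.0598 without it), HFD replicate 1 (adjusted p = 0.123) or HFD replicate 2 (adjusted p = 0.0581). Of their 50-base stretches, 19.2% in Acot1 and 27.7% in Acot2 occur in other genes, for the most part in each other, so the split of reads between them is uncertain. Acot13, the most abundant of the 3, averaged 32.03 ± 4.21 FPKM with TAI and 38.1 ± 0.687 FPKM with HFD (n = 3 mice per group) and was not called (adjusted p = 0.361).

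Pdk4 and Ucp2 stand beside the pathway. Pdk4, the kinase that shuts off pyruvate dehydrogenase when fat is burned, was at 12.3, 22.4 and 10.2 FPKM in female controls, at 12.5, 11.9 and 6.17 FPKM with TAI and at 31.1, 18.9 and 16.5 FPKM with HFD. HFD mice lay above TAI mice but overlapped the controls, whose replicate 2 was at 22.4 FPKM, and neither comparison passed the test (log2 fold change 1.05, SE 0.30, adjusted p = 0.0761 against TAI, and 0.044 without female control replicate 2). Ucp2, a carrier of the inner membrane, was at 52.5, 56.9 and 60.4 FPKM in controls, 68.9, 82.5 and 79.3 FPKM with TAI and 92.6, 119 and 88.6 FPKM with HFD. The 3 groups did not overlap. HFD mice exceeded controls (log2 fold change 0.80, SE 0.14, adjusted p = 0.00431), while neither TAI against controls (adjusted p = 0.17) nor HFD against TAI (adjusted p = 0.214) was past the threshold.

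**Figure D3:**
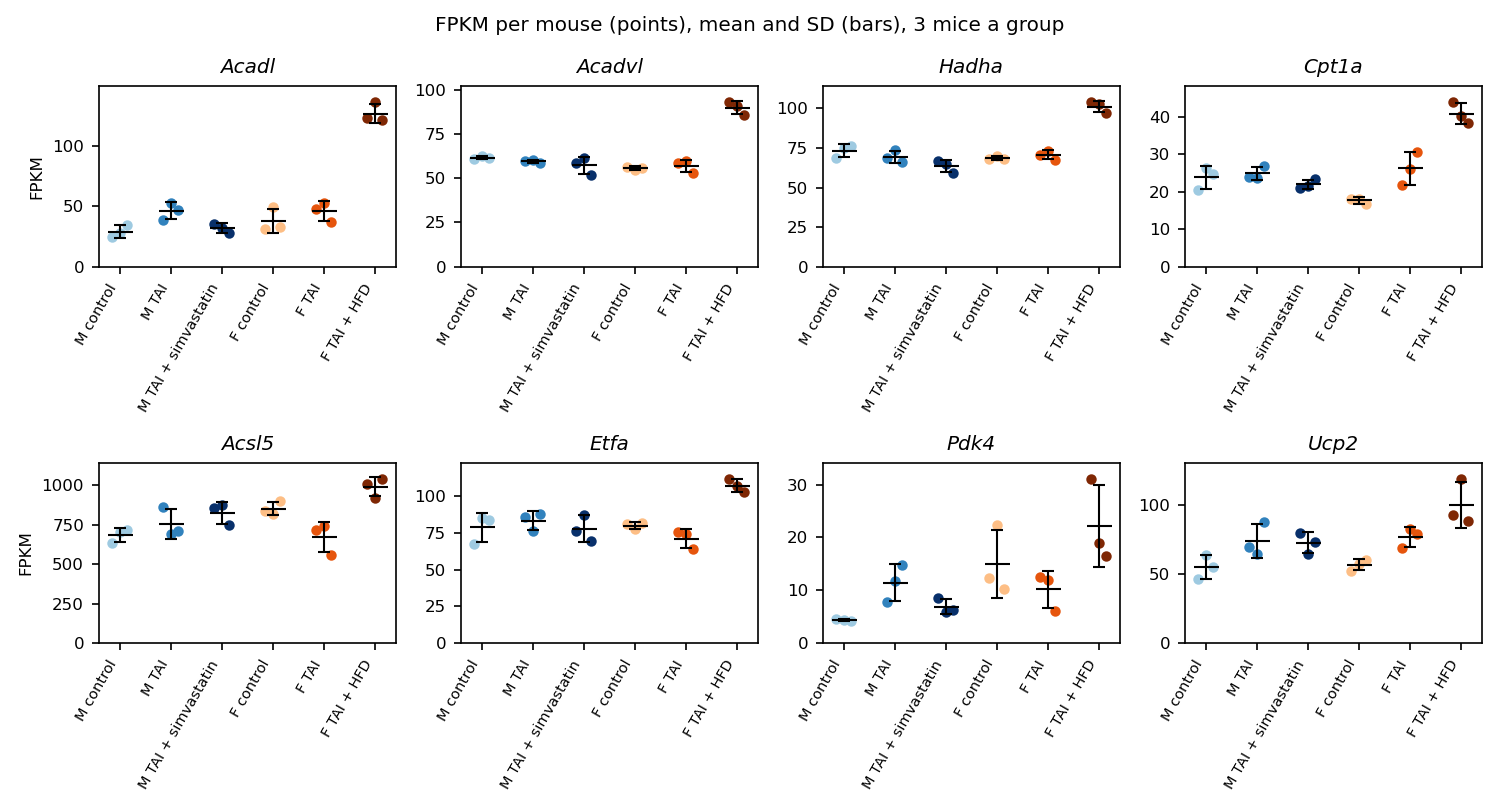
FPKM of 8 genes (vertical axes, each from 0) in the 6 groups (horizontal axes), with 1 point a mouse and a bar for the mean with its SD. The HFD mice lie above every other mouse for Acadl, Acadvl, Hadha, Cpt1a, Acsl5, Etfa and Ucp2, and Pdk4 is lowest in male controls.

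Against unirradiated female controls, 17 of the 32 genes were higher in HFD mice and 0 lower, where 2.91% of all genes were higher and 1.67% lower, and 16 remain without Acot1. The median of the 32 was 0.42 on the log2 scale against 0.10 for all genes. This comparison shares the HFD libraries with that against TAI and is no separate evidence. Of the 17, Acads rose 1.45-fold (log2 fold change 0.51, SE 0.09, adjusted p = 0.00352), Hadha 1.48-fold (log2 fold change 0.56, SE 0.07, adjusted p = 0.000236) and Etfb 1.63-fold (log2 fold change 0.69, SE 0.09, adjusted p = 0.000337). Acsl5 and Decr1 were called against TAI and not against controls, and Ucp2, Eci1 and Eci2 the other way round, and whether these changes differ was not tested. Of the 17 calls, 14 were made after quantile normalization and 11 after median ratio scaling. The split of all genes turned, from 343 higher and 197 lower to 327 and 542 under the first and to 294 and 382 under the second, while 28 and 29 of the 32 genes had a positive value. Without 1 library the count was 11 (female control replicate 3), 10 (HFD replicate 1) and 11 (HFD replicate 2). Single libraries ended the calls of Etfa (each female control and HFD mouse), Etfdh (female control replicates 2 and 3 and each HFD mouse), Acot2 (female control replicates 1 and 3 and HFD replicate 1), Slc25a20 (HFD replicate 1) and Acaa2 (11 libraries, the 6 compared among them), with adjusted p between 0.0518 and 0.156. Without female TAI replicate 3 the count was 19.

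TAI alone gave 1 call among these genes. In female mice, Cpt1a was higher after TAI than in controls (log2 fold change 0.53, SE 0.11, adjusted p = 0.0462) and 0 of the 32 genes were lower, where 0.416% of all genes were higher and 0.34% lower (49 and 40 genes, 17 and 34 after quantile, 23 and 48 after median ratio scaling). This call stood at the edge of the threshold. It was lost when any 1 of 16 of the 18 libraries was left out, with adjusted p between 0.0512 and 0.199, and it was kept only without male control replicate 1 or female TAI replicate 1. Slc22a5 was lower after TAI without reaching the threshold (log2 fold change −0.36, SE 0.09, adjusted p = 0.0926), and reached it without female TAI replicate 1 (adjusted p = 0.0306). In male mice, 0 of the 32 genes were higher and 0 lower after TAI by limma, where 1.2% and 0.901% of all genes were (141 and 106 genes, but 122 and 139 after quantile normalization), and 3 and 1 had an unadjusted p under 0.05. Pdk4 was at 4.64, 4.34 and 4.26 FPKM in male controls and at 7.79, 11.8 and 14.7 FPKM after TAI. The groups did not overlap and the mean was 2.59-fold higher, but the adjusted p was 0.0608 (SE 0.30), and 0.0439 without male TAI replicate 1, 0.0342 without female control replicate 2 and 0.0277 without female TAI replicate 3. Acadl was at 24.5, 27.9 and 34.8 FPKM in male controls and 38.9, 53.1 and 47.01 FPKM after TAI (adjusted p = 0.0684). Its values did not overlap, and without female control replicate 2 or female TAI replicate 3 the adjusted p was 0.0327 or 0.0399.

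The change with TAI was then compared between the sexes. By limma, 0 of the 32 genes differed upward and 0 downward in this test of the difference, where 0.501% and 0.833% of all genes did (59 and 98 genes, but 31 and 83 after median ratio scaling), and 2 and 2 had an unadjusted p under 0.05. Pdk4 came nearest, with a log2 change of 1.16 in males and −0.50 in females (difference −1.66, SE 0.43, adjusted p = 0.075). The unirradiated mice of the 2 sexes also differed. Compared with male controls, 2 of the 32 genes were higher in female controls and 1 was lower, where 2.12% of all genes were higher and 3.02% lower (249 and 355 genes, 341 and 228 after quantile, 323 and 201 after median ratio scaling). Pdk4 was 3.39-fold higher in female controls (log2 fold change 1.49, SE 0.30, adjusted p = 0.0101), and all 3 female values, 10.2 to 22.4 FPKM, exceeded the male ones, 4.26 to 4.64 FPKM. Acsl3 was at 9.03, 9.34 and 10.3 FPKM in male and 15.1, 13.9 and 12.8 FPKM in female controls. Every female value was higher (log2 fold change 0.50, SE 0.12, adjusted p = 0.0204), and this call needed male control replicate 1 (adjusted p = 0.0672 without it), male control replicate 2 (adjusted p = 0.0715) or female control replicate 1 (adjusted p = 0.101). Cpt1a was at 20.4, 26.3 and 24.7 FPKM in male controls, above the female values given before (log2 fold change −0.40, SE 0.11, adjusted p = 0.0497). This call was lost when any 1 of 15 of the 18 libraries was left out, with adjusted p between 0.0516 and 0.195.

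Simvastatin was compared with TAI first. Compared with male mice exposed to TAI alone, 0 of the 32 were higher and 0 lower by limma, where 0.0765% of all genes were higher and 0.62% lower (9 and 73 genes, 13 and 32 after quantile, 5 and 16 after median ratio scaling). At an unadjusted p under 0.05, 0 were higher and 4 lower. The median of the 32 was −0.07 and that of all genes −0.09, and under median ratio scaling they were 0.05 and 0.01, so that the 32 genes lay near the median of all genes under both. Acadl was at 35.6, 32.4 and 27.8 FPKM with simvastatin, below the male TAI mice, and 2 of the 3 values lay in the range of male controls (log2 fold change −0.52, SE 0.18, adjusted p = 0.246). Pdk4 was at 8.53, 5.97 and 6.30 FPKM with simvastatin, and its difference from TAI had an interval of −1.26 to 0.02. Compared with male controls, 0 genes were higher and 2 lower, where 2.74% and 2.63% of all genes were (323 and 309 genes, 459 and 268 after quantile, 363 and 178 after median ratio scaling). Eci1 was at 29.6, 29.7 and 29.1 FPKM in male controls and at 21.5, 24.5 and 19.8 FPKM with simvastatin. The groups did not overlap (log2 fold change −0.41, SE 0.09, adjusted p = 0.0129), and the call was lost without simvastatin replicate 1 (adjusted p = 0.0577) or 3 (adjusted p = 0.0772). Etfdh was at 38.9, 42.3 and 42.2 FPKM in male controls and at 34.2, 35.9 and 30.2 FPKM with simvastatin (log2 fold change −0.29, SE 0.07, adjusted p = 0.0247). Its call was lost without male control replicate 2 or 3 or simvastatin replicate 1 or 3 (adjusted p between 0.0605 and 0.125).

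The difference between the treatments was tested directly, as the change with HFD in females minus that with simvastatin in males. By this test 10 of the 32 genes differed upward and 0 downward, where 0.552% and 0.221% of all genes did (65 and 26 genes, 34 and 32 after quantile, 20 and 13 after median ratio scaling). Acadl had the widest difference of the genes above 10 FPKM, with 1.46 under HFD and −0.52 under simvastatin (difference 1.98, SE 0.25, adjusted p = 0.00139). Acadvl differed by 0.70 (SE 0.09, adjusted p = 0.00192), Hadha by 0.64 (SE 0.09, adjusted p = 0.00333) and Cpt1a by 0.80 (SE 0.16, adjusted p = 0.0294). The others called were Acot1, Acsl3, Etfa, Etfdh, Etfb and Hadhb. Acot1 is again a description, so that 9 remain. Of these, Acadl, Acadvl and Hadha were called whichever library was left out, but Acadvl and Hadha were lost under median ratio scaling (adjusted p = 0.121 and 0.149). The other 6 were each lost without 7 or more of the 18 libraries. The count was 5 (quantile), 3 (median ratio) and 4 in a fit of these 4 groups alone. Among fits that left out 1 library it was lowest without HFD replicate 1, at 3, and highest without female TAI replicate 3, at 16. It was 4 without male TAI replicate 2 or 3, simvastatin replicate 1 or 3, female TAI replicate 2 or HFD replicate 2 or 3, 5 without male TAI replicate 1, and 6 without female control replicate 1 or 3.

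Other genes of fatty acid handling, not all of them mitochondrial, were listed beside the 32, and 33 of 42 were tested. With HFD, 8 were higher than with TAI alone and 0 lower, with a median of 0.17. Fabp1, the fatty acid binding protein shared with liver, rose from 1651 ± 291 to 3728 ± 213 FPKM (log2 fold change 1.19, SE 0.16, adjusted p = 0.000777). Ech1, which moves double bonds in unsaturated chains, rose from 59.7 ± 3.58 to 86.1 ± 6.03 FPKM (log2 fold change 0.52, SE 0.08, adjusted p = 0.00128). Slc27a2, which activates very long chains, gave 0.86 and Fabp2, the intestinal fatty acid binding protein, 0.96 on the log2 scale, both past the threshold. With the compared groups only, limma no longer called Fabp1 (adjusted p = 0.0541), Ech1 (0.0824), Slc27a2 (0.109) or Fabp2 (0.119). Fabp2 was also lost with no filter (adjusted p = 0.0575). Of 16 regulators of the pathway, 2 were higher and 2 lower with HFD than with TAI. Creb3l3, a membrane-bound transcription factor of lipid metabolism, rose from 149.9 ± 38.4 to 234 ± 15.2 FPKM, and the oxysterol receptor Nr1h3 from 15.4 ± 1.35 to 20.5 ± 0.727 FPKM. Either call was lost without any 1 HFD mouse, and that of Nr1h3 also without female TAI replicate 2 or 3 (adjusted p between 0.0599 and 0.119). Ppard, the PPAR delta receptor, fell from 36.1 ± 4.74 to 24.05 ± 1.56 FPKM (log2 fold change −0.56, SE 0.10, adjusted p = 0.0048), and the corepressor Ncor1 from 111 ± 4.96 to 85.9 ± 6.005 FPKM (log2 fold change −0.37, SE 0.09, adjusted p = 0.0345). The Ppard call was lost under median ratio scaling (adjusted p = 0.0679) and with the compared groups only (adjusted p = 0.119). That of Ncor1 was lost without any 1 HFD mouse, female TAI replicate 1 or 2, female control replicate 1 or simvastatin replicate 1 (adjusted p between 0.0501 and 0.161). The respiratory chain was compared as the next machine in line. Of 26 nuclear genes listed for it and tested, 0 were higher and 0 lower with HFD by limma (median 0.12, 2 and 0 at an unadjusted p under 0.05). Of 13 mitochondrially encoded genes likewise 0 and 0 were called (median −0.32, 0 and 4 unadjusted). Cox7a1, a subunit of the chain that was listed with the brown adipocyte markers instead, was higher by limma (log2 fold change 0.78, SE 0.11, adjusted p = 0.000777).

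Markers of cell types and of intestinal regions were followed in the same libraries, and some of them moved with these genes. The 32 genes summed to 1785 to 2143 FPKM in female TAI mice, 2121 to 2257 FPKM in female controls and 2779 to 2911 FPKM in HFD mice. Of 15 enterocyte markers, 3 were higher and 1 lower with HFD than with TAI, and they summed to 23307 to 27779 FPKM with TAI, 31339 to 33365 FPKM in controls and 33472 to 35910.0 FPKM with HFD. For both lists the sums of the HFD mice lay above those of the other female groups. Of 7 tested markers of duodenum and jejunum, 2 were higher, Fabp1 and Apoa4, and the list summed to 4478 to 7751 FPKM with TAI and 12646 to 14727 FPKM with HFD. Both encode proteins of fat absorption, and the other markers of this list, such as Lct and Gata4, were not called. In HFD mice Apoa4 averaged 8550 and Fabp1 3728 FPKM, of a mean list sum of 13440 FPKM. With each gene weighted alike, this list lay at 0.47, 0.14 and 0.27 from its log2 mean over all libraries. Simvastatin replicate 1 was at 0.17, so that the HFD mice overlapped it. Of 5 tested ileum markers 1 was lower, and they summed to 1164 to 1351 FPKM with TAI and 952 to 1060.0 FPKM with HFD. In HFD mice Muc13 alone averaged 725 FPKM, of a mean ileum sum of 995 FPKM. With each gene weighted alike, the ileum list lay at −0.10, 0.07 and −0.07 in HFD mice. It was at −0.26, −0.10 and −0.19 in simvastatin mice, so that it was not lowest with HFD. Of 6 tested adipocyte markers, 4 were lower with HFD, and Adipoq was at 8.95, 9.80 and 3.03 FPKM with TAI and 0.782, 0.431 and 0.576 FPKM with HFD. The Adipoq call was lost without any 1 of 9 libraries, female TAI replicates 1 and 2 and all HFD mice among them (adjusted p between 0.0533 and 0.155). The adipocyte list summed to 63.01 to 154 FPKM with TAI and 47.1 to 78.9 FPKM with HFD, with an overlap between the groups. The brown adipocyte marker Ucp1 was at 0 in all HFD libraries, and Cox7a1, a respiratory chain subunit also found in muscle, rose from 92.6 ± 6.19 to 160.1 ± 8.17 FPKM. Smooth muscle markers summed to 283 to 512 FPKM with TAI and 259 to 296 FPKM with HFD, with 1 of 8 lower (Mylk), all 8 values negative and a median of −0.54. Skeletal and cardiac muscle markers summed to 4.78 to 5.89 FPKM with TAI and 3.24 to 6.43 FPKM with HFD, and of them Mb and Myh4 were at 0 in all HFD libraries. Paneth cell markers summed to 100.4 to 227 FPKM in female controls and 801 to 2116 FPKM with HFD, with 4 of 8 higher against controls and 0 against TAI. Cycling crypt cell markers summed to 30.2 to 197 FPKM with TAI and 108 to 130.1 FPKM with HFD, and all 9 tested had positive values (median 0.53), with 0 called by limma and 0 at an unadjusted p under 0.05. Of 7 goblet cell and 9 leukocyte markers and of 2 muscle markers and 1 pancreas marker that passed the filter, 0 were called by limma, with 1 goblet cell and 1 pancreas gene at an unadjusted p under 0.05. The part that a change in cell types or in the sampled region has in the changes of the 32 genes was not tested.

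**Figure D4:**
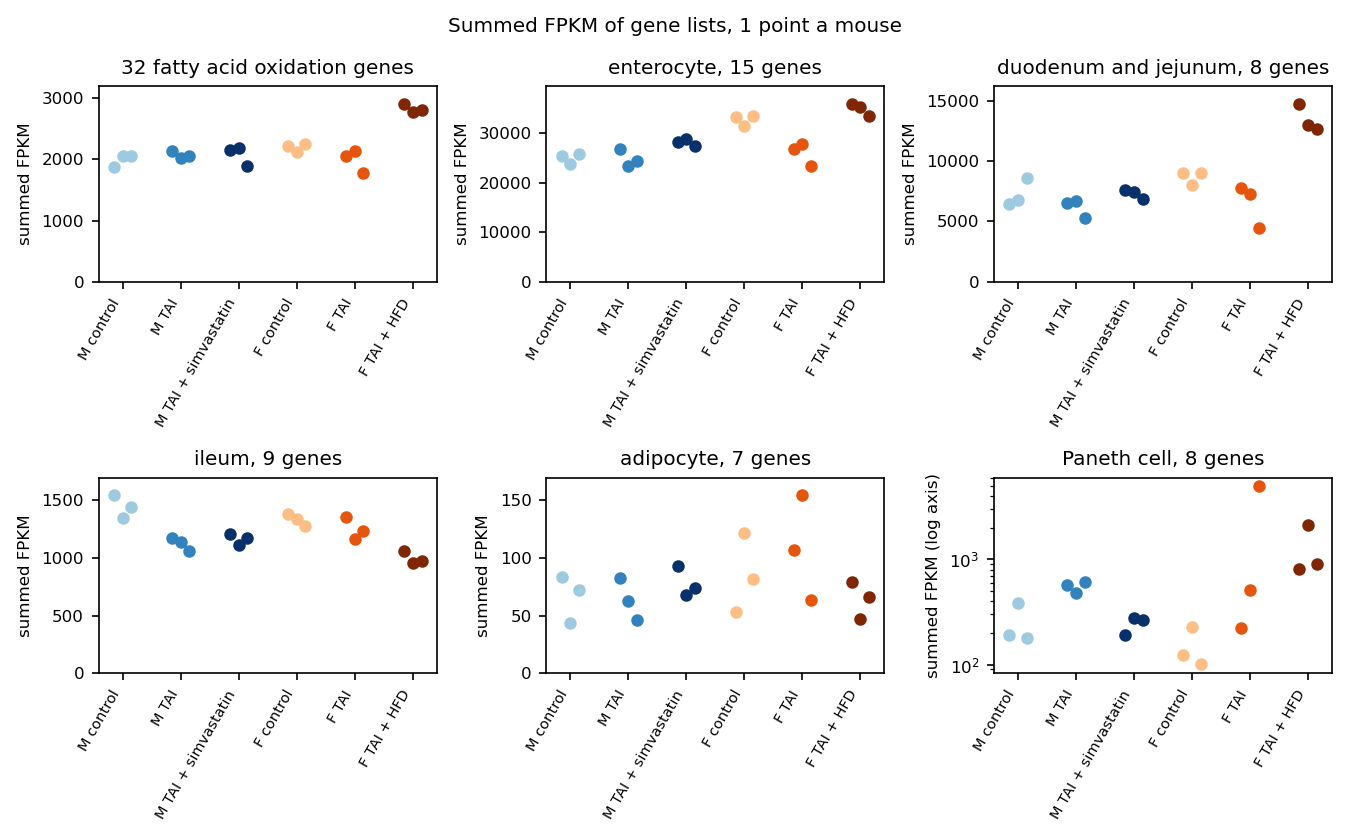
Summed FPKM (vertical axes, logarithmic for the Paneth cell list) of the 32 genes and of 5 marker lists in the 6 groups (horizontal axes), with 1 point a mouse. The sums of the 32 genes and of the duodenum and jejunum markers are highest in the HFD mice, and the ileum sum is lowest there. In these mice Apoa4 and Fabp1 make up most of the duodenum and jejunum sum, and Muc13 most of the ileum sum. Female TAI replicate 3 has the highest Paneth cell sum, at 4943 FPKM.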

How the data were processed

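Libraries were made from total RNA of 18 small intestines with the NEBNext Ultra RNA kit, and groups were taken from the sample labels. The authors deposited FPKM per transcript for 55869 transcripts of 21956 gene identifiers. In the submitters' processing notes stand Bowtie2 2.2.8, HISAT2, Cuffdiff 2.1.1 and StringTie 1.3.1, with no role for any. No source used here gives their genome build. FPKM hold no read totals, so that no count test was made and precision rests on the spread between mice. FPKM were summed by symbol (21928, of which 25 hold several identifiers). A symbol was tested where 3 or more libraries reached 1 FPKM, on log2(FPKM + 1) with limma 3.58.1 in R 4.3.3, with an intensity trend, 1 mean per group and 12 residual degrees of freedom, and p values were adjusted over all 11767 genes. Intervals are at 95%. The fit was tested on simulated data. A test by the study for the mRNA table is not given in the text read here.

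The 32 genes and the other lists were chosen with earlier results of these data known. Levels in single libraries are given for up to 14 genes called in HFD against TAI with the largest change, for genes called in other comparisons (up to 8 each by smallest p) and for the most abundant gene of each role, and for other lists up to 4 called genes are named. Genes named beyond this were chosen after their values were seen. Alternatives were other pseudocounts, filters, scalings, groups, variance models, a replicate block, 1 transcript per gene, and each library left out. Positions and shared 50-base stretches come from GENCODE M21 (GRCm38), and sequences from RefSeq. Some genes of the other lists are not reported here by name. Python 3.11.15 and matplotlib 3.10.9 were used.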

Additional observations from a re-analysis of the deposited data

Results flagged for a closer look

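The change with TAI differed between the sexes, by the test of the difference, in genes of the lists beside the 32, on the log2 scale. Among them were the fatty acid receptor Ppard (−0.47 in males and 0.36 in females, difference 0.83, SE 0.14, adjusted p = 0.00714 by limma), the transcription factor Klf15 (1.26 in males and −0.09 in females, difference −1.35, SE 0.31, adjusted p = 0.0438 by limma), the medium-chain synthetase Acsm5 (1.06 in males and −0.01 in females, difference −1.07, SE 0.21, adjusted p = 0.0199 by limma) and Pccb, a subunit of propionyl-CoA carboxylase (−0.25 in males and 0.37 in females, difference 0.62, SE 0.14, adjusted p = 0.0341 by limma). Fitted with the compared groups only, 3 of these 4 were lost, and the other, Ppard, was lost under median ratio scaling (adjusted p = 0.134). Leaving out 1 library ended that of Acsm5 for 2 of 18 libraries, male control replicate 3 and female control replicate 1 (adjusted p = 0.0538 and 0.0657), that of Klf15 for 15 and of Pccb for 10, and that of Ppard for none.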

How the results depend on the processing

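In all, 28 alternatives were run, and of 46 calls over the 9 comparisons, those of Acot1 left out, 10 were kept under each of them, among them Acadl and Acadvl against TAI and Acadl, Acadvl, Cpt1a, Etfb, Hadha and Ucp2 against controls in HFD mice. The 3 calls of Acot1 were kept in the 24 alternatives in which it was tested, and in the other 4, all fits without an HFD mouse among them, it did not pass the filter. Of 2840 recomputed values 1 was reversed, that of Hadhb with the transcript of highest mean (−0.25), because its transcripts are then no longer summed. For HFD against TAI the count of 16 was 3 with the compared groups only and 10 with group weights, and 8 to 17 without 1 library. Against controls it was 11 with median ratio scaling and 10 to 19 without 1 library, with 1 lower gene, Slc22a5, when only the compared groups were fitted or with group weights, and 0 to 1 without 1 library. For HFD minus simvastatin the count of 10 was 6 with no filter or no intensity trend, 5 with quantile normalization, the transcript of highest mean or group weights, 4 with the compared groups only, 3 with median ratio scaling and 3 to 16 without 1 library. The call in females after TAI fell to 0 with no filter, either scaling, the compared groups only, no intensity trend, the replicate block, the transcript of highest mean or group weights, and was 0 to 1 without 1 library, with 0 to 1 lower genes. The count in males after TAI was 1 (Pdk4) with the compared groups only and 0 to 2 without 1 library. For simvastatin against controls the 2 lower genes became 1 with median ratio scaling or the transcript of highest mean, 0 with the compared groups only and 0 to 3 without 1 library. Between control sexes the 2 higher genes became 1 with the transcript of highest mean and 1 to 3 without 1 library, and the 1 lower gene 0 with no filter, either scaling, the compared groups only, no intensity trend or the transcript of highest mean and 0 to 1 without 1 library. The cause of these shifts was not tested. Of 34 calls of other lists that are named here, 4 were kept under each alternative (Cox7a1 with HFD against TAI, Acsm5 in males after TAI and with simvastatin against controls, and Ppard between control sexes), and none was reversed.

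Over all genes, calls moved as well, for HFD against TAI from 372 to between 47 (compared groups only) and 560 (without female TAI replicate 3), for HFD against controls from 540 to between 178 (without HFD replicate 2) and 2377 (group weights), for HFD minus simvastatin from 91 to between 33 (median ratio scaling) and 988 (without female TAI replicate 3), for TAI in females from 89 to between 0 (compared groups only) and 1050 (without female TAI replicate 1) and in males from 247 to between 105 (without male TAI replicate 3) and 390 (without female TAI replicate 3), for simvastatin against TAI from 82 to between 11 (without simvastatin replicate 3) and 151 (group weights) and against controls from 632 to between 330.0 (without simvastatin replicate 1) and 916 (without female TAI replicate 3), between control sexes from 604 to between 239 (without female control replicate 1) and 972 (without female TAI replicate 3), and for the TAI change between the sexes from 157 to between 56 (compared groups only) and 187 (filter of 5 FPKM). Between samples with the same replicate number the correlations of deviations ran from −0.46 to 0.32, and in no comparison were all 3 over 0.1. Those of replicate 1 were positive in every pair of groups within a sex, from 0.13 to 0.32. Whether samples of that number share a source of variation was not tested. With the replicate number as a block, 15 genes were higher for HFD against TAI and 17 for HFD against controls. With 3 mice a group, changes of several SEs could be missed, such as that of Cpt2 with HFD against TAI (0.35, SE 0.10, adjusted p = 0.0818).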

Other observations

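Among the lists beside the 32 genes, some were called in male mice after TAI. Klf15, a transcription factor of fasting metabolism, rose from 1.24 ± 0.257 to 4.50 ± 1.45 FPKM after TAI (log2 fold change 1.26, SE 0.22, adjusted p = 0.0066), Ppara, the PPAR alpha receptor, from 9.58 ± 0.985 to 16.5 ± 4.69 FPKM (log2 fold change 0.70, SE 0.16, adjusted p = 0.0347) and Acsm5, a medium-chain acyl-CoA synthetase, from 3.15 ± 0.392 to 7.76 ± 1.94 FPKM (log2 fold change 1.06, SE 0.15, adjusted p = 0.00147). Ppard fell from 47.6 ± 1.38 to 34.1 ± 2.11 FPKM (log2 fold change −0.47, SE 0.10, adjusted p = 0.0201). Of 7 goblet cell markers, 3 were lower in the same mice (Zg16, Clca1 and Muc2). With simvastatin, Klf15, Ppara and Acsm5 were also higher than in male controls, at 3.13, 15.2 and 7.17 FPKM on average. Without 1 library the Ppara and Ppard calls after TAI were lost for 5 and 4 libraries (highest adjusted p 0.175 and 0.119), those of Zg16 and Clca1 for male control replicate 1 and male TAI replicates 2 and 3, and that of Muc2 also for male control replicate 2 and male TAI replicate 1. With simvastatin, those of Klf15 and Ppara were lost without any 1 of the 6 mice compared (adjusted p between 0.0503 and 0.139). With the transcript of highest mean in place of the sum, limma called neither gene. Klf15 then gave 0.65 after TAI (adjusted p = 0.209) and 0.05 with simvastatin (adjusted p = 0.939) on the log2 scale. For Ppara the adjusted p was then 0.115 and 0.134, and after TAI it was 0.165 with the compared groups only.

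Among unirradiated mice, female controls had less Ppard than male controls, at 27.8 against 47.6 FPKM on average (log2 fold change −0.76, SE 0.10, adjusted p = 0.000506). They also had less Ppargc1b, a coactivator of mitochondrial genes, at 5.36 against 9.57 FPKM (log2 fold change −0.73, SE 0.14, adjusted p = 0.00757). Fabp2 was higher in female controls, at 5853 against 3301 FPKM (log2 fold change 0.82, SE 0.16, adjusted p = 0.00774). In HFD mice against female controls, Ppara rose from 12.9 ± 1.86 to 20.1 ± 3.27 FPKM (log2 fold change 0.60, SE 0.16, adjusted p = 0.046), a call lost without any 1 of 14 libraries (adjusted p up to 0.219), and 4 of 8 Paneth cell markers were higher, among them Lyz1, from 45.2 ± 33.98 to 503 ± 289 FPKM, whose call was lost without female control replicate 1 or 3 or any 1 HFD mouse (adjusted p between 0.0665 and 0.145).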
